A study of Homo sapiens with 2 samples.

Results

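The chorionic gonadotropin genes were examined in SF-539 cells, a human glioblastoma (GBM) line that is not of placental or pituitary origin. The members were the alpha subunit gene CGA on chromosome 6 and the beta subunit cluster on chromosome 19, which holds CGB1, CGB2, CGB3, CGB5, CGB7, CGB8 and LHB. All 8 names were found among the 58735 genes of the deposited table. The genes were taken by name with the values of both libraries already known, so their levels and ratios are given as a description and no test was run on them. The 2 groups were SF-539 cells carrying the lentiviral pGIPZ control construct (shControl) and SF-539 cells carrying an shRNA against FKBP9 in the same vector (shFKBP9), an immunophilin of the endoplasmic reticulum. Both were stably transduced and selected with puromycin, grown in DMEM with fetal bovine serum and taken at the same labelled range of passages. There was 1 library per condition, so no difference between them has a replicate check. The labels speak of selected clones without giving their number and do not name the hairpin used.

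Human chorionic gonadotropin is the placental hormone that maintains the corpus luteum in early pregnancy, and it is a dimer of an alpha and a beta chain. The alpha chain is shared with luteinizing hormone, follicle-stimulating hormone and thyrotropin, while the beta chain sets which receptor is bound. The beta chain is encoded by several near-identical copies that arose from the gene of the luteinizing hormone beta chain, LHB, and lie beside it. Syncytiotrophoblast makes both chains, gonadotrophs of the pituitary make CGA and LHB, and many tumors outside these tissues are known to release free beta chain.

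In the deposited values 6 of the 7 beta subunit genes were detected in both libraries, CGB1 had 1 fragment in shControl alone, and the alpha subunit gene was not detected in either. CGB8 was the most abundant copy, with 23.7 FPKM (fragments per kilobase of gene, scaled by library size) in shControl against 15.6 in shFKBP9. The fragments on the 6 CGB copies together numbered 588 in shControl and 383 in shFKBP9. Scaled by library size, 68.7% of the shControl fragments were left in shFKBP9 (95% counting interval 60.2 to 78.3%). With FPKM summed instead, which takes each copy per length, 33.7 FPKM in shControl stood against 21.0 in shFKBP9. As a description of these 2 libraries, the values of CGB3, CGB5 and CGB8 were lower in shFKBP9 with counting intervals apart, whereas those of CGB7 and LHB overlapped.

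The libraries held 18116873 fragments on genes in shControl and 17158514 in shFKBP9. Each FPKM value multiplied by gene length was a whole multiple of 1 step, for 100% of the values above 0, and fragments per gene were taken from these steps. A single fragment on 1 kilobase was worth 0.0552 and 0.0582 FPKM in the respective libraries. All intervals are exact, at 95%, and with 1 library per condition they cover counting error only. Fragments amplified by PCR are not independent molecules, so the intervals can be too narrow even for counting error. FKBP9, the gene targeted by the shRNA, was at 49.8 FPKM in shControl against 4.68 in shFKBP9, lower in the library labelled as its knockdown. In RNA from a whole culture, fewer cells that express a gene and less of its RNA per cell cannot be told apart.

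The copies are so alike that their sequences decide how well reads can be assigned. The coding sequences of CGB5 and CGB8, each of 498 bases, were identical in the canonical transcripts of GENCODE release 44. CGB3 differed from either of them at 1 base, CGB7 differed from CGB8 at 5 bases and LHB differed from CGB8 at 33 of 425 aligned bases. The stretch of 60 coding bases below was chosen because the expressed copies differ most within it, and it starts at coding base 45 of each gene. Capitals mark the 7 positions at which any of the 5 genes differs.
CGB8: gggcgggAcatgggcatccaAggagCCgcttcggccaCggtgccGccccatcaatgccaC
CGB5: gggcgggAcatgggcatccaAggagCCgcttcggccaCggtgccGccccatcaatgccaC
CGB3: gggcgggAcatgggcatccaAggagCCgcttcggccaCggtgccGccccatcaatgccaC
CGB7: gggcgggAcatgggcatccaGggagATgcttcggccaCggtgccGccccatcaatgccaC
LHB: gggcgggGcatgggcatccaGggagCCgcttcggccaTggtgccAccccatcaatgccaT
The stretch lies in hg38 at chr19:49048284-49048343 in exon 2 of CGB8 (minus strand), at chr19:49044606-49044665 in exon 2 of CGB5 (plus strand), at chr19:49023515-49023574 in exon 2 of CGB3 (minus strand), at chr19:49054920-49054979 in exon 4 of CGB7 (minus strand) and at chr19:49016626-49016685 in exon 2 of LHB (minus strand). CGB8, CGB5 and CGB3 carry the same letters here, and CGB7 can be told from them at 3 positions.

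Over the whole canonical transcript, 67.1% of the windows of 100 bases of CGB8, 71.5% of those of CGB5 and 62.2% of those of CGB3 recurred exactly in a transcript of another CGB copy. For CGB1 and CGB2 the shares were 57.7% and 54.7%. For CGB7 the share was 13.6%, the lowest of the 6. LHB and CGA shared 0% of their windows, so reads of these genes can be placed without regard to the copies. With windows of 150 bases the share was 11.4% for CGB7 and lay between 50.7% for CGB2 and 60.6% for CGB5 among the others. How the authors treated reads with several equally good places is not given in the sources used here. The values of CGB1, CGB2, CGB3, CGB5 and CGB8 are therefore uncertain as to which copy each read came from, that of CGB7 over a smaller part of its transcript. The sum over the copies is firmer in this respect only. If reads with several places were left uncounted, the sum is understated too. Such a loss would weigh less on CGB7 and LHB than on the copies that share more windows.

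In GENCODE release 44 the exons of 3 copies also overlap other genes of the table on the same strand. AC008687.1, which runs from CGB1 to CGB3, covers 416 exon bases of CGB3 and 370 of CGB1, and it was listed with 0 fragments in both libraries. AC008687.8 and AC008687.7 cover 1243 and 953 exon bases of CGB7, and they had 4 and 0 fragments in shControl and 0 in shFKBP9. With these 3 genes added, the sum came to 592 against 383 fragments (log2 ratio -0.55). The level of a copy whose exons overlap another gene can be understated, because a fragment within both genes may have been left uncounted.

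CGB8 (ENSG00000213030, chromosome 19, 49047638 to 49049106, minus strand, 3 exons) encodes the full beta chain. It had 379 fragments in shControl, or 23.7 FPKM (interval 21.4 to 26.2), and 236 in shFKBP9, or 15.6 FPKM (13.7 to 17.7). The intervals of the libraries do not overlap. Its level stood above those of 87.4% of the protein-coding genes with a fragment in shControl and of 80.8% in shFKBP9. The log2 ratio of shFKBP9 to shControl, computed with 0.1 added to both FPKM values as for all single genes below, was -0.60. Without that addition the interval ran from -0.85 to -0.37.

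CGB5 (ENSG00000189052, 49043884 to 49045311, plus strand) lies next to CGB8 and encodes the same chain. Its level was 5.84 FPKM in shControl (4.69 to 7.19) from 89 fragments and 2.77 FPKM in shFKBP9 (1.98 to 3.77) from 40, which gave a log2 ratio of -1.05 (interval -1.65 to -0.52). CGB3 (ENSG00000104827, 49022869 to 49024333, minus strand), a copy nearer to LHB, had 40 fragments in shControl and 13 in shFKBP9. These correspond to 2.52 FPKM (1.80 to 3.43) and 0.863 FPKM (0.460 to 1.48), with a log2 ratio of -1.44 (-2.57 to -0.61). CGB3, CGB5 and CGB8 thus stood lower in shFKBP9 with intervals apart, and the intervals of their ratios overlap one another.

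CGB7 (ENSG00000196337, 49054275 to 49058860, minus strand) is the copy with the longest gene model, of 3386 bases, of which the coding part takes 498. It had 73 fragments in shControl, or 1.19 FPKM (0.933 to 1.497), and 90 in shFKBP9, or 1.55 FPKM (1.24 to 1.90). The log2 ratio was 0.35 and its interval, from -0.08 to 0.84, includes 0. No difference was detectable for CGB7 at this depth, and its value is the only one of the copies on the higher side in shFKBP9. Fragments per gene do not tell its coding exons from the long non-coding ones.

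CGB2 (ENSG00000104818, 49031912 to 49033238, plus strand) and CGB1 (ENSG00000267631, 49035610 to 49036895, minus strand) are copies in which inserted sequence replaced part of the promoter and of the first exon. CGB2 had 6 fragments in shControl and 4 in shFKBP9, or 0.386 and 0.271 FPKM. CGB1 had 1 fragment in shControl and 0 in shFKBP9, where 3 fragments, taken as the limit for a count of 0, would be 0.211 FPKM. Both genes lay near the limit of detection, and no fold is given for CGB1. The interval of the CGB2 log2 ratio, from -2.78 to 1.57, allows a difference in either direction.

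LHB (ENSG00000104826, 49015980 to 49017091, minus strand, 3 exons) encodes the beta chain of luteinizing hormone and was the second most abundant gene of the cluster per length. It had 94 fragments and 8.24 FPKM in shControl (6.66 to 10.1) and 78 fragments and 7.21 FPKM in shFKBP9 (5.70 to 9.0). The log2 ratio was -0.19 (-0.64 to 0.26), and the libraries overlap. The last 16 bases of LHB overlap the end of RUVBL2, an ATPase gene on the plus strand with 33.2 and 31.3 FPKM in the control and knockdown libraries. Whether counting used the strand is not given in the sources used here, and without it a read of RUVBL2 that runs past its end cannot be told from one of LHB.

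**Figure D1:**
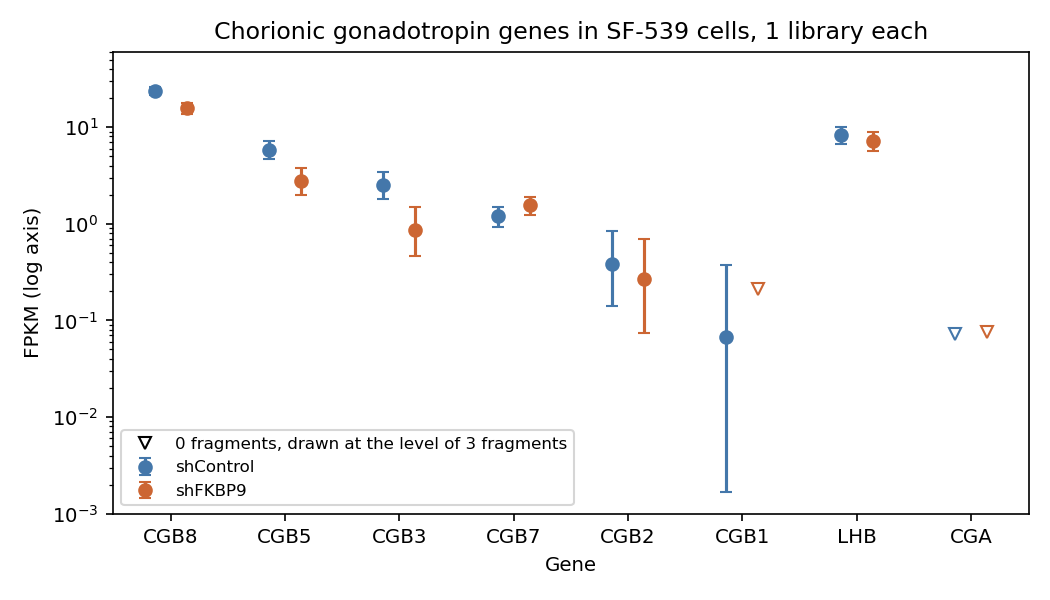
FPKM of the 8 genes (vertical log axis) in the shControl and shFKBP9 libraries, with exact 95% Poisson intervals of the fragment count as bars; open triangles mark genes with 0 fragments, drawn at the level of 3 fragments. CGB8 is highest at 23.7 and 15.6 FPKM, CGB3, CGB5 and CGB8 have intervals apart between the libraries, and CGA has 0 fragments in both.

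CGA (ENSG00000135346, chromosome 6, 87085498 to 87095406, minus strand, 4 exons) had 0 fragments in shControl and 0 in shFKBP9. On the gene length of the table, the 3 fragments taken as the limit for a count of 0 are 0.0725 FPKM for shControl and 0.0765 FPKM for shFKBP9, and the upper ends of the exact intervals lie higher, at 0.0892 and 0.0941 FPKM. Per length, the 6 CGB copies reached 33.7 FPKM when summed for shControl and 21.0 for shFKBP9, and 3 fragments on CGA set a lower limit for their ratio that depends on the length used. With the gene length of the table for CGA, 2284 bases, the sum stood 465-fold and 275-fold above 3 fragments per library. With the canonical transcripts, of 710 bases for CGA, an alternative chosen after the values were seen, the sum was at least 146-fold higher in shControl and at least 88.5-fold higher in shFKBP9, taken against 3 fragments and not against the upper end of the interval. CGB8 alone was at least 101-fold and at least 63.0-fold higher on that length, against 327-fold and 204-fold with the gene length of the table. RNA for the beta chain was thus measured in both libraries without RNA for the alpha chain at this depth.

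The 250 bases upstream of CGA and CGB8 in RefSeq on GRCh38.p14 are shown because these genes stand at the opposite ends of the levels. Capitals mark matches, on either strand, to the cAMP response element TGACGTCA, the AP-2 palindrome GCCNNNGGC, the Sp1 motif GGGCGG and the TATA box TATAAA. The stretch of CGA is at chr6:87095107-87095356 on the minus strand and that of CGB8 at chr19:49049112-49049361 on the minus strand, both 5′ to 3′ on the strand of the gene. The RefSeq start of CGA lies 300 bases inside the gene model of the table, and that of CGB7 lies 1111 bases inside, so their stretches are upstream of the RefSeq start only.
CGA: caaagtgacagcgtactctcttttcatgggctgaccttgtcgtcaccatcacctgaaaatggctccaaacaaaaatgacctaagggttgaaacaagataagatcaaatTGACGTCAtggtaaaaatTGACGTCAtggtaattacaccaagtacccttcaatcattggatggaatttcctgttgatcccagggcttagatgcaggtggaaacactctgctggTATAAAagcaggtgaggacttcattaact
CGB8: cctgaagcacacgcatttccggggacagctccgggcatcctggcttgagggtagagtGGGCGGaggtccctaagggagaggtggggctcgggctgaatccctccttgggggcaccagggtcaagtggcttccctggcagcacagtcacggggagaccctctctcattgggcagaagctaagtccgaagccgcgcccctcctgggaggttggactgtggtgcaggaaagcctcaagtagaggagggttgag
CGA held TGACGTCA 2 times in tandem and CGB1 and CGB2 held it 1 time each, whereas 1.63% of the 34943 upstream stretches of RefSeq genes searched held a match. CGB3, CGB5, CGB7, CGB8 and LHB held 0 matches to TGACGTCA. The exact letters TATAAA were found for CGA alone among the 8 genes, and in 10.8% of all stretches. Other forms of the TATA box were not searched for, so their absence from the other genes is not shown. GGGCGG was found 1 time each for CGB3, CGB5, CGB8 and LHB and 2 times for CGB7, and in 42.5% of all stretches, while GCCNNNGGC was found for CGB7 alone and in 19.7% of all. The matches marked above do not overlap one another.

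The upstream stretches were closest among CGB3, CGB5 and CGB8. They were 96.8% identical between CGB3 and CGB5, 97.9% between CGB3 and CGB8 and 97.5% between CGB5 and CGB8 over the aligned bases. That of LHB was 67.0% identical to that of CGB8, and that of CGB7, taken at its RefSeq start, 62.0%. The stretches of CGB1 and CGB2 were 86.2% identical to each other and 60.1% and 56.6% identical to that of CGB8. CGB3, CGB5 and CGB8 were also the 3 copies that lay lower in shFKBP9 with intervals apart, and whether the shared upstream sequence has a part in this was not tested.

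Summed over the 6 copies, the log2 ratio was -0.54 (interval -0.73 to -0.35), from 588 and 383 fragments. With LHB added it was -0.49 (-0.66 to -0.32), from 682 and 461 fragments. Leaving out CGB8, which holds most of the fragments, gave 209 and 147 fragments and a log2 ratio of -0.43 (-0.75 to -0.12). Leaving out CGB7 gave -0.74 (-0.95 to -0.53). The sum of fragments was thus lower in shFKBP9 whichever copy was left out, with values from -0.74 to -0.43. With FPKM summed and 0.1 added, the log2 ratio was -0.68 for the 6 copies. It was -0.74 without CGB7 and -0.86 without CGB8, so the copy whose removal gave the lowest ratio depends on the scale. The sum of fragments does not depend on how the counted reads were divided among the copies, but it cannot show whether a single copy differed.

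CGB8 took 64.5% of the fragments on the 6 copies in shControl (interval 60.4 to 68.3%) and 61.6% in shFKBP9 (56.5 to 66.5%). The share of CGB7 was 12.4% in shControl (9.86 to 15.4%) and 23.5% in shFKBP9 (19.3 to 28.1%), so these intervals do not overlap. CGB5 had 15.1% (12.3 to 18.3%) and 10.4% (7.57 to 13.9%), and CGB3 had 6.80% (4.90 to 9.15%) and 3.39% (1.82 to 5.73%). CGB5 had the second most fragments in shControl and CGB7 in shFKBP9, but the intervals of their shares overlap in shControl. A share also depends on the other copies, and the libraries overlap for CGB7 on its own. Because CGB7 has the longest gene model, its share per length was smaller, 3.53% of the summed FPKM in shControl and 7.36% in shFKBP9, while CGB8 took 70.3% and 74.1%. Per length the order was CGB8, CGB5, CGB3, CGB7, CGB2 and CGB1 in shControl, and in shFKBP9 CGB7 stood above CGB3. Neighbors in the order of FPKM whose intervals overlap were LHB and CGB5 in shControl, CGB7 and CGB3 as well as CGB3 and CGB2 in shFKBP9, and CGB2 and CGB1 as well as CGB1 and CGA in both.

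For the leading genes, all fragments of a gene were also divided by its number of windows of 100 bases that no other gene shares. This alternative was chosen after the values were seen, and no fragment was located in a window. The scale assumes that reads of shared sequence were left uncounted, which is not known. CGB8 had 1463 fragments per 1000 such windows in shControl and 911 in shFKBP9, and CGB5 had 401 and 180.2. LHB had 221 and 184, CGB3 had 136 and 44.2, and CGB7 had 77.7 and 95.8. Under that assumption CGB8 led in both libraries on this scale too. LHB took the third place in shControl and the second in shFKBP9, where it and CGB5 stood at nearly the same value. With windows of 150 bases LHB had 208 against 139 for CGB5 in shFKBP9, so their closeness rests on the window length.

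To set the members beside other genes, those with at least 1 FPKM in either library were counted when they passed 2-fold with 0.1 added. Among 12741 such genes of all biotypes 279 were lower in shFKBP9 (2.19%) and 258 were higher (2.02%). Among the 10346 of them that are protein-coding, as all 8 members are, 20 were lower (0.193%) and 22 were higher (0.213%). Of the 8 members, 5 reached this minimum (CGB3, CGB5, CGB7, CGB8 and LHB), 2 of them were past 2-fold lower (CGB3 and CGB5) and 0 were past 2-fold higher. Among the 3433 genes that also had between 20 and 500 fragments, 1.63% were past 2-fold lower and 1.66% higher, and 4 members fell in that range. The counting interval of the ratio lay below 0 for 16.9% of the 17105 genes with at least 10 fragments and for 3 of the 6 members with as many, and above 0 for 13.8% and for 0 members. The members were chosen from this same contrast, so nothing is read from their counts against these shares. With 1 added to FPKM in place of 0.1, the log2 ratios were -0.92 for CGB3 and -0.86 for CGB5, so that 0 members were past 2-fold, whereas the count stayed at 2 with 0.01 added, with median or TPM scaling and with no minimum, and was 1 when each library had to reach 1 FPKM.

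Among the same 12741 genes the spread of the ratios widens as fragments become few. Of 481 genes with 50 to under 100 fragments together, the middle 95% had log2 ratios between -1.03 and 1.02, and CGB3, with 53 fragments, lay at -1.44. For 696 genes with 100 to under 200 fragments the middle 95% ran from -0.71 to 0.75. CGB5, with 129 fragments, lay at -1.05, LHB, with 172, at -0.19 and CGB7, with 163, at 0.35. For 2142 genes with 500 to under 1000 fragments it ran from -0.43 to 0.42, and CGB8, with 615 fragments, lay at -0.60. The ranges give the scale of ratios at each depth, and since the members were chosen from this contrast nothing is read from where they fall.

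The cluster spans 42881 bases, and 35 other genes of the table lie in it or within 200 kb of it. Of these 18 reached 1 FPKM in either library, and 0 of them were past 2-fold in either direction. Their median log2 ratio was -0.07, with values from -0.65 to 0.41, beside a median of -0.02 over all genes at this minimum. The highest was PPP1R15A, a stress-induced regulator of eIF2alpha phosphatase, with 11.4 FPKM for shControl against 15.2 for shFKBP9. The lowest was AC008687.6, an unprocessed pseudogene between CGB8 and CGB7, with 57 fragments against 34 (interval of the log2 ratio -1.33 to -0.03).

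On the RUVBL2 side GYS1, which encodes muscle glycogen synthase, had 41.3 and 40.2 FPKM (log2 ratio -0.04), and RUVBL2 was at -0.08. Farther out on that side PLEKHA4 was at -0.31 (-0.56 to -0.07) and PPP1R15A at 0.41 (0.26 to 0.56). AC008687.4, between LHB and CGB3, had 4.25 and 3.08 FPKM (-0.45, interval -0.86 to -0.07). On the CGB7 side NTF4, which encodes the neurotrophin NT-4, had 34 and 37 fragments (log2 ratio 0.19), and the potassium channel gene KCNA7 had 139 and 146 (0.14). AC008687.2 and AC008687.3, on the same side, were at -0.47 (-1.82 to 0.74) and -0.37 (-1.54 to 0.72). The neighbors thus had ratios on both sides of 0, and the lowest ratios of the region at 1 FPKM or more belonged to CGB3, CGB5, AC008687.6 and CGB8. The difference between members and neighbors was not tested.

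Genes of the same hormone family were all but absent. The beta chain genes FSHB and TSHB, the receptor genes LHCGR and FSHR and the beta chain gene of thyrostimulin, GPHB5, were at 0 fragments in both libraries. GPHA2, the alpha chain gene of thyrostimulin, had 3 and 4 fragments, and the thyrotropin receptor gene TSHR had 7 and 3. LHCGR is the receptor of chorionic gonadotropin, so its RNA was not detected where that of the beta chain was. None of the 7 genes reached 1 FPKM.

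Markers of the cell types that make the hormone were scarce as well. Of 26 trophoblast genes 18 were at 0 in both libraries, among them the placental lactogen genes CSH1 and CSH2, GH2, HSD3B1, the trophoblast factor GCM1, INSL4 and PSG1. Their summed level was 1.14 FPKM for shControl against 0.842 for shFKBP9, and the most abundant was PAPPA2, a placental protease gene, with 72 and 58 fragments. The aromatase gene CYP19A1 had 48 and 33 fragments, PSG5 had 16 and 10 and PSG4 had 14 and 13. The intervals of the ratios of PAPPA2, CYP19A1, PSG5 and PSG4 all include 0. Of 12 pituitary genes 8 were at 0 in both libraries, including POMC, PRL, GH1 and NR5A1, and the most abundant, the LIM homeobox gene LHX4, had 43 and 48 fragments. None of the genes of either list reached 1 FPKM, in the libraries in which CGB8 stood at 23.7 and 15.6 FPKM. The pituitary homeobox gene PITX1, listed among the regulators and not among these markers, was present at 10.9 and 10.0 FPKM.

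Beside the glial label of the line, the astrocyte gene GFAP had 0.196 and 0.139 FPKM, S100B had 0 and 1 fragments and AQP4 had 0 in both. The glial factor gene OLIG2 had 0.791 and 0.712 FPKM, and NES, which encodes the neural progenitor filament nestin, had 2.36 and 2.17 FPKM. The mesenchymal genes VIM and CD44 were abundant, at 277 and 295 FPKM and at 48.6 and 55.6 FPKM. Of 11 oncofetal genes, which are active in embryo or placenta and again in tumors, HMGA2 and IGF2BP3 reached 1 FPKM. HMGA2 had 3.92 and 5.25 FPKM (log2 ratio 0.41, interval 0.30 to 0.54) and IGF2BP3 had 3.82 and 4.24 FPKM (0.15). The alpha-fetoprotein gene AFP had 33 and 32 fragments, the placental alkaline phosphatase gene ALPP 9 and 5, and CEACAM5 and GPC3 were at 0.

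Of 15 factors known to act on the promoters of the subunit genes, 9 reached 1 FPKM in either library, and 0 of these were past 2-fold in either direction. Their median log2 ratio was 0.03, beside -0.02 over all genes at this minimum. TFAP2A, an AP-2 factor of trophoblast, had 1.18 and 1.14 FPKM (log2 ratio -0.05, interval -0.37 to 0.26), and its relative TFAP2C had 34 and 23 fragments. ETS2, an activator of both subunit genes, had 19.6 and 21.8 FPKM (0.15, 0.05 to 0.25). PITX1, which acts on LHB and CGA in the pituitary, had 690 and 603 fragments (-0.12), and GATA3, a trophoblast factor, had 0.980 and 1.12 FPKM (0.17). The AP-1 subunit gene JUN had 133 and 138 FPKM and SP1 11.9 and 12.1 FPKM. EGR1, the early response factor that drives LHB in the pituitary, had 11.8 and 8.95 FPKM (-0.40, -0.58 to -0.23), which was the lowest ratio of the 9. NR5A1, needed with EGR1 in the pituitary, and DLX3, a placental activator of CGA, were at 0 in both libraries. LHB, with an interval including 0, and EGR1 are set side by side only, and whether they are linked was not tested.

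The protein-coding genes whose ratio lay nearest to that of the beta sum, among 10301 that reached 1 FPKM and 50 fragments together, were ATP8B3, ZBED1, ACPP, MTG1 and DHRS11. The genes were ranked by their log2 ratio with 0.1 added against that of the sum with nothing added, from which they lay at most 0.0036 away. With nothing added the ratios of the 5 genes ran from -0.58 for MTG1 to -0.55 for ZBED1, so the likeness is looser on the scale of the sum. With 2 libraries it is that of 1 ratio and no more.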

How the data were processed

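RNA-Seq of SF-539 shControl and shFKBP9 cells was analysed, 1 library per condition. Per the methods and the submitters' processing notes, the authors removed adapter, undetermined and low-quality reads, aligned paired-end reads to hg38 with HISAT2 2.0.5, counted them per gene with featureCounts 1.5.0-p3 and used edgeR. The authors deposited FPKM per gene, scaled by library size and gene length. The table held 0 further value columns. Fragments were recovered from FPKM times gene length (tolerance 1e-06). Ratios of single genes have 0.1 added; sums use fragments scaled by the library sizes behind the FPKM. Members and lists were chosen with earlier results of these data known. Named genes are FKBP9, the members, the lists, genes within 200 kb and the 5 genes nearest in ratio. A fold against 3 fragments or fewer is a bound. Recovery, calls and intervals were tested on simulated data. Alternatives were 1 or 0.01 added, nothing added, median or TPM scaling, other minimums, protein-coding genes, and other sums and scales of the copies. RefSeq upstream stretches matched all 8 members. The sum with overlapping genes, the scale of unshared windows and canonical transcript lengths for CGA were added after the data were seen. Python 3.11.15, numpy 2.4.6, pandas 2.3.3, scipy 1.17.1, matplotlib 3.10.9, Biopython 1.88 and MAFFT 7.526 were used. RT-qPCR and immunoblots were not analysed.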

Additional observations from a re-analysis of the deposited data

How the results depend on the processing

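No paired analysis was possible because each condition had 1 library and the labels carry no replicate number. The log2 ratio of the beta sum was -0.54 as reported, with a counting interval from -0.73 to -0.35. On fragments, leaving out CGB7 took it outside this interval, to -0.74, and leaving out any other single copy did not. The sum of CGB3, CGB5 and CGB8 alone also lay at -0.74. With FPKM summed and 0.1 added, the ratio lay outside the interval without CGB7, at -0.74, and without CGB8, at -0.86. Adding LHB or the overlapping genes, median or TPM scaling and other values added to FPKM left it inside. The number of members past 2-fold lower was 2 as reported, 0 with 1 added to FPKM and 1 when both libraries had to reach 1 FPKM. Over all genes, the 258 higher and 279 lower became 138 and 153 with 1 added, 2022 and 1993 with no minimum, 40 and 41 when both libraries had to reach 1 FPKM, and 22 and 20 for protein-coding genes alone. No ratio of a member changed its sign. Shares of CGB7 and CGB8 moved when taken per length, as given above. Depth limits CGB1 and CGB2, and with 1 library per condition no difference can be set against replicate spread.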
